A study of Mus musculus with 2 samples.

Results

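The endocytic C-type lectins described here are 7 genes, Mrc1, Clec10a, Mgl2, Cd209a, Cd209d, Cd209f and Cd209g, taken by symbol from the 32285 genes of the deposited feature tables. All 7 were found in both libraries. C-type lectins are receptors that hold a calcium-dependent sugar-binding fold. Mrc1 encodes the macrophage mannose receptor CD206, which binds mannose, fucose and sulphated sugars and carries its cargo into endosomes. Clec10a (MGL1, CD301a) and Mgl2 (MGL2, CD301b) are neighbouring mouse genes for galactose-type lectins that bind terminal galactose or N-acetylgalactosamine. The Cd209 genes are the mouse family related to human DC-SIGN, with Cd209a best known from conventional dendritic cells. Mrc1, Clec10a and Mgl2 are widely used as marks of interleukin-4-driven or tissue-resident macrophages.

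Leukocytes (CD45+) were taken from mouse aortas for 2 single-cell RNA libraries, CD45 being the surface antigen shared by white blood cells. One library came from a group treated with ZnDPA@siIRF5, whose name points to an siRNA against Irf5, the transcription factor interferon regulatory factor 5, and the other came from a control group whose library is named Scr. Strain, sex, age, diet, dose, time and the number of animals pooled are not given in the sources used here, nor is what the control animals received. With 1 library per group there is no replicate, so no test of the treatment was possible: the values below compare 2 libraries, not 2 conditions, and all intervals (95%, exact) cover counting error alone. Barcodes with at least 500 detected genes and at most 15% mitochondrial UMIs were used, which left 12466 in the treated and 12038 in the control library. A UMI is a molecular tag that counts 1 RNA molecule. After removal of doublet calls, 11805 treated and 11523 control cells were kept, with medians of 4543 UMIs per treated and 4629 UMIs per control cell.

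Cells were clustered without the 7 lectins, which were also absent from the marker lists, so that their levels did not define the classes. Macrophage-like cells numbered 1882 in the treated and 1434 in the control library, cDC2-like cells (type 2 conventional dendritic cells) 448 treated and 216 control, pDC-like cells (plasmacytoid dendritic cells) 63 treated and 39 control, and monocyte-like cells 1740 treated and 693 control. The macrophage label was given by 10 markers such as C1qa, Csf1r and Mertk. Their level therefore describes the class and is no check of its name. These markers summed to 14280.3 UMIs per 1000000 UMIs of the class (CPM) in treated and 15448 CPM in control macrophage-like cells. In T cell-like cells they summed to 75.7 treated and 70.5 control CPM. Irf5 itself was not lower in the treated library: it had 121 CPM in treated and 108 CPM in control macrophage-like cells (log2 ratio 0.16, interval 0.05 to 0.28). The libraries shared 45 barcodes, 37 of them among kept cells. Immunoglobulin genes took 6.04% of UMIs in the treated and 16.0% in the control library.

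Mrc1 lies on chromosome 2 (GRCm38, chr2:14229392-14332057, plus strand). Mgl2 (chr11:70130329-70137550) and Clec10a (chr11:70156197-70170834) follow each other on the plus strand of chromosome 11 with a gap of 18.6 kb. The 4 Cd209 members lie in one cluster of chromosome 8 that spans 394 kb: Cd209a (chr8:3743397-3748984), Cd209d (chr8:3871824-3878555) and Cd209f (chr8:4102787-4105835) on the minus strand and Cd209g (chr8:4134098-4137707) on the plus strand. All 7 are protein-coding in the annotation, GENCODE vM21.

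**Figure D1:**
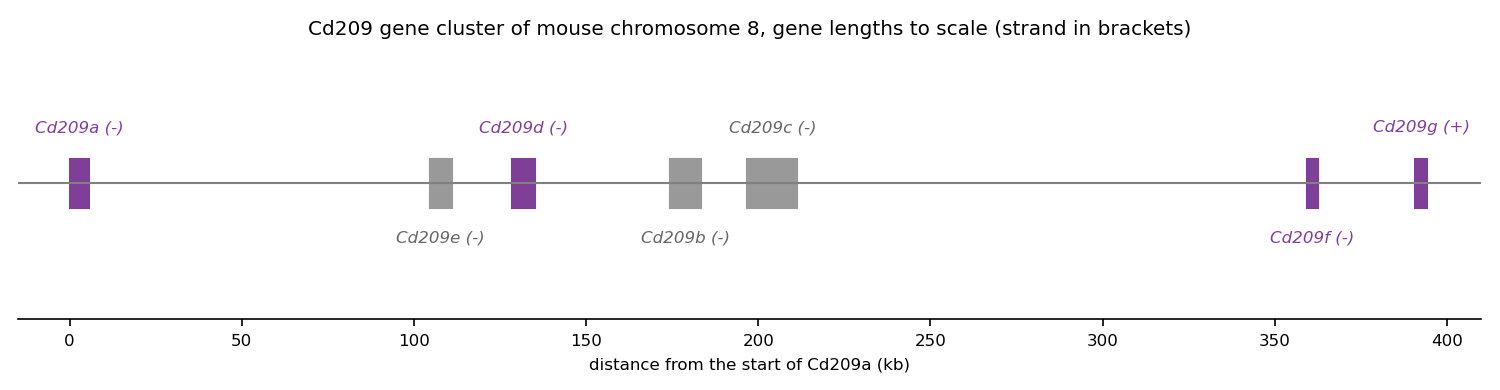
Map of the Cd209 cluster. The x axis gives the distance in kb from the start of Cd209a, boxes are genes drawn to scale, purple boxes are the 4 members and grey boxes the other Cd209 genes; Cd209f and Cd209g lie next to each other at the far end, on opposite strands.

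The sequences before the RefSeq starts of Cd209f and Cd209g are shown because this pair was the most alike both in its levels and in its promoter letters. RefSeq's table (GRCm38.p6) held the 250 bases before the start of 6 of the 7 members, all but Clec10a. Each sequence below runs 5′ to 3′ on the gene's strand and stops before the first exon base of a protein-coding GENCODE transcript. The stretch of Cd209g lies within the gene span given above, since GENCODE also has a retained-intron transcript of Cd209g that begins further upstream and covers it. In Cd209f (chr8:4105836-4106014) and Cd209g (chr8:4134486-4134651), capitals mark bases identical in the alignment of the pair. In Cd209a (chr8:3748985-3749234), shown as the cluster member least like Cd209f in its levels, capitals mark GGAAGT, the core bound by the myeloid factor PU.1.
Cd209f: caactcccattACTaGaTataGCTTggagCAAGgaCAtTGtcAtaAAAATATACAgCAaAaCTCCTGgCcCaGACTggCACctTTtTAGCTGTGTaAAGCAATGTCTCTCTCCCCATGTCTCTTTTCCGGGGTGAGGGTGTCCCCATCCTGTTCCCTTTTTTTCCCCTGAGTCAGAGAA
Cd209g: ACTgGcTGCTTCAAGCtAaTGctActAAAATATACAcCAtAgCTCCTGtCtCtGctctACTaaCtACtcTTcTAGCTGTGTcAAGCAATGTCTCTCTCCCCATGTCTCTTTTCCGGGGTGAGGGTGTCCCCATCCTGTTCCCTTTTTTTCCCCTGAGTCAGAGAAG
Cd209a: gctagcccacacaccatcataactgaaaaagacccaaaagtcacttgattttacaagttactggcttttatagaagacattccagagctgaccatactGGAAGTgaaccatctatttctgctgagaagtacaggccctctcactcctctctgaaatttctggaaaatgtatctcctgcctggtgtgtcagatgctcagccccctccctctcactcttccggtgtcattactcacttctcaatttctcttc
Over the 250 bases, Cd209f and Cd209g shared an unbroken identical run of 154 bases, of which 83 are printed for Cd209f and 84 for Cd209g. The run lay at -154 to -1 of Cd209f and at -168 to -15 of Cd209g, counted from the RefSeq start, and on either strand it was held by 2 of 32851 promoters, those of this pair. Identity over the alignment was 78.1% for this pair (211 of 270 columns), and 46.8% to 52.1% for the 14 other pairs of members, whose longest shared run was 10 bases. GGAAGT, searched on both strands, was found before Mrc1, Mgl2, Cd209a and Cd209d and in 19.7% of all promoters. The MAF motif TGCTGAC, a STAT6 motif (TTC and GAA with 4 bases between) and an IRF motif (2 copies of GAAA with 2 bases between), searched on both strands, were in none of the 6 windows and in 3.81%, 5.85% and 2.98% of all promoters.

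How far 3′ reads can tell the members apart was checked with 50-base words from the last 500 bases of their transcripts. None of the words of Mrc1, Cd209a, Cd209d or Cd209g occurred in another gene, but 37.1% of those of Cd209f also occurred in Cd209g. For Clec10a 13.8% were shared with Mgl2, and for Mgl2 9.82% were shared with Clec10a or with other genes. How reads from these shared stretches were counted was not tested. The values of Cd209f, Cd209g, Clec10a and Mgl2 carry that uncertainty, as do likenesses between the genes of these pairs.

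Mrc1 was highest in macrophage-like cells of both libraries. It had 1120.1 CPM in the treated library and 1096 CPM in the control library in macrophage-like cells, and a UMI was present in 83.3% of treated and 84.7% of control cells. The next class was unnamed cluster 13, led by Retnla, Lyz1, Ear2 and Lpl, with 574 treated and 622 control CPM. Then came cDC2-like cells with 82.7 treated and 71.8 control CPM and monocyte-like cells with 56.03 treated and 57.9 control CPM, and the libraries' ranges of these 4 classes did not overlap. The pDC-like cells held 0 treated UMIs and 1 control UMI of Mrc1. T cell-like cells, which should lack the gene, had 6.73 treated and 4.69 control CPM, which is taken as the level of free RNA in the droplets. With every cell thinned to 2000 UMIs, 74.9% of treated and 73.3% of control macrophage-like cells still held Mrc1, against 1.01% of treated and 0.933% of control T cell-like cells, whose median depth was 4294 treated and 3698 control UMIs before thinning, against 5888 treated and 6009 control UMIs in macrophage-like cells.

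The galactose-type lectins reached further into dendritic cells. Clec10a had 516 CPM in the treated library and 561 CPM in the control library in macrophage-like cells, 252 treated and 207 control CPM in cDC2-like cells and 192 treated and 149 control CPM in pDC-like cells. These 3 classes and cluster 13, with 112 treated and 123 control CPM, stood apart from one another in both libraries. Its neighbour Mgl2 had 273 treated and 277 control CPM in macrophage-like cells and 145 treated and 154 control CPM in cDC2-like cells, but only 5 treated and 2 control UMIs in pDC-like cells, where Clec10a had 80 treated and 46 control UMIs. For Mgl2, cluster 13 (153 treated and 167 control CPM) and cDC2-like cells overlapped in their ranges. In mast cell-like cells (89 treated and 50 control) Clec10a gave 17 treated and 5 control UMIs, spread over 13 treated and 5 control cells, while Mrc1 gave 2 treated and 0 control UMIs and Mgl2 gave 0 in both.

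The Cd209 members divided between dendritic cells and macrophages. Cd209a was highest in cDC2-like cells, at 419 CPM in the treated library and 348 CPM in the control library, followed by pDC-like cells at 67.4 treated and 74.4 control CPM and then by cluster 13 (38.5 treated and 49.8 control CPM) and macrophage-like cells (38.4 treated and 47.3 control CPM), which overlapped. Of all its UMIs, 66.3% in the treated and 50.8% in the control library came from cDC2-like cells. Macrophage-like cells gave 19.9% of its UMIs in the treated and 38.3% in the control library. Cd209f and Cd209g were macrophage genes: 97.5% of treated and 97.7% of control UMIs of Cd209f, and 96.7% of treated and 97.2% of control UMIs of Cd209g, fell in macrophage-like cells. Their levels there were 112 treated and 111 control CPM for Cd209f and 47.7 treated and 36.97 control CPM for Cd209g, against at most 2 UMIs of either in the cDC2-like cells of a library and 0 in the pDC-like cells. Cd209d was shared between macrophage-like cells, at 80.7 treated and 109.5 control CPM, and pDC-like cells, at 139.5 treated and 67.9 control CPM, and the libraries' ranges of these classes overlapped. Of all Cd209d UMIs, 84.4% of treated and 89.2% of control fell in macrophage-like cells, and 4.91% of treated and 1.80% of control in pDC-like cells. In pDC-like cells its 58 treated and 21 control UMIs were spread over 30.2% of treated and 23.1% of control cells, with at most 8 in one cell. The pDC label rests on markers such as Siglech and Ccr9, whose 8 genes summed to 12377 treated and 10243 control CPM, against 192 treated and 353 control CPM for the macrophage markers. Since these 8 markers gave the label, their level is no check of its name. The cDC1-like cells held no UMI of Cd209d or Cd209g in either library.

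**Figure D2:**
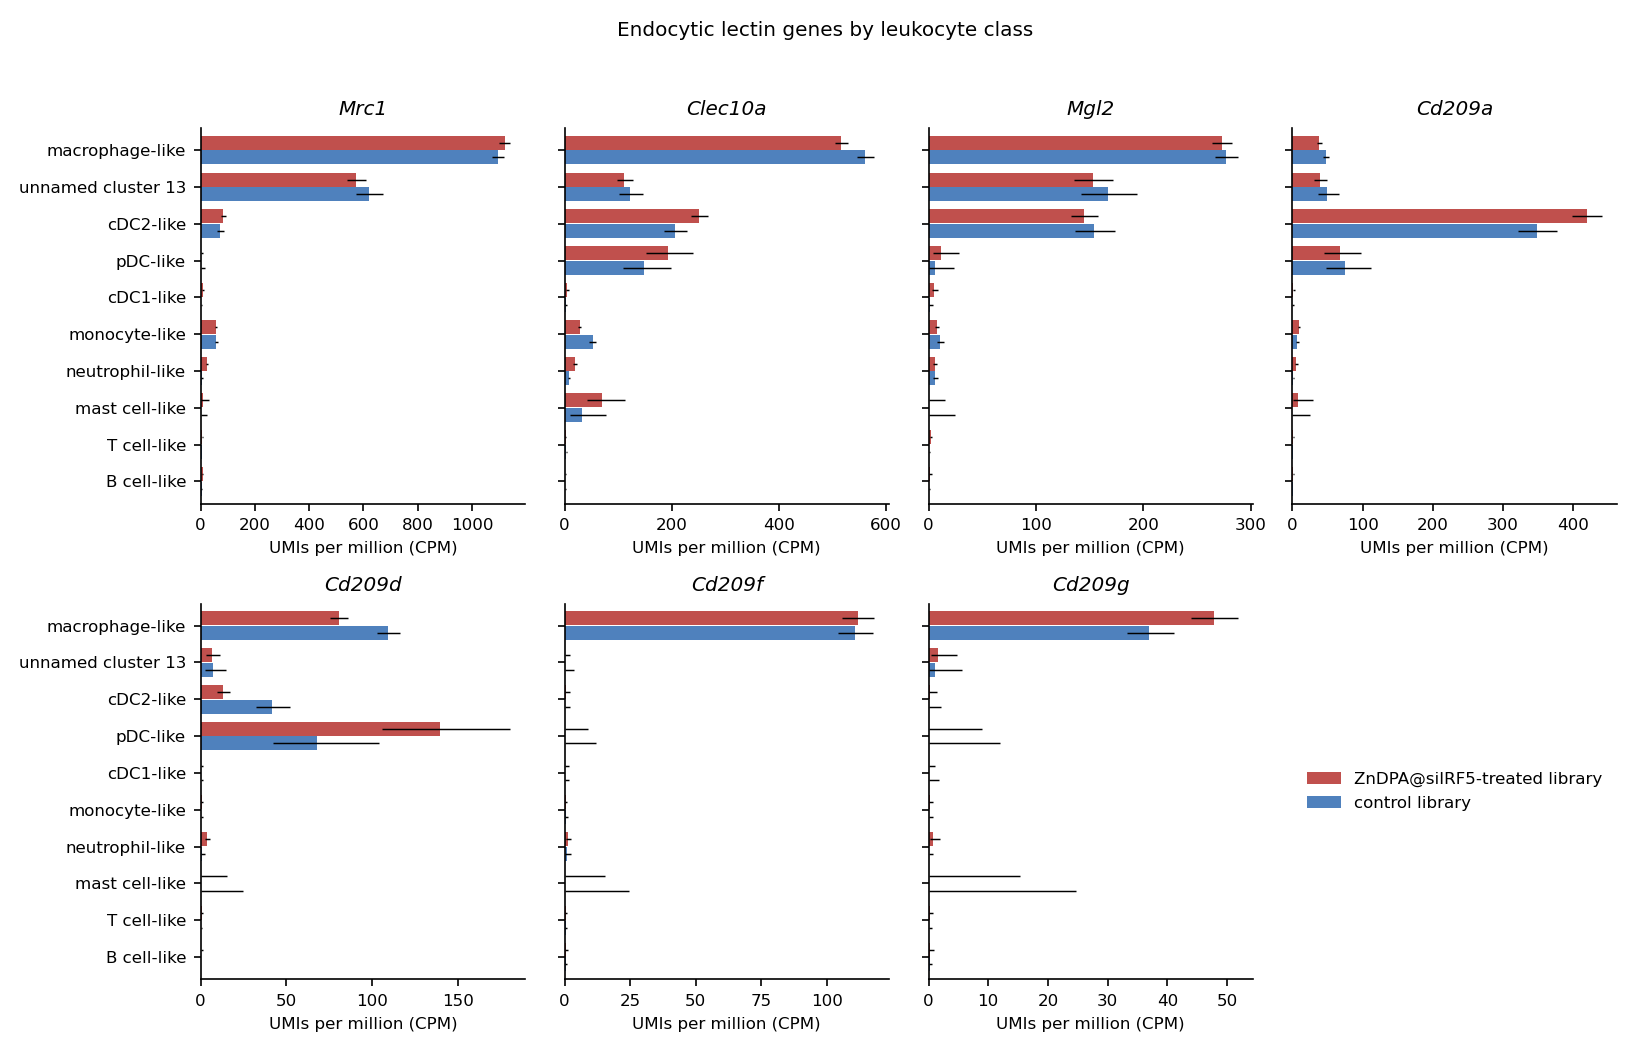
Level of each lectin gene in CPM (x axis, linear) by leukocyte class, treated library in red above the control library in blue, with exact 95% Poisson intervals for counting error. Mrc1, Cd209f and Cd209g peak in macrophage-like cells, Cd209a in cDC2-like cells, and Cd209d and Clec10a have bars in pDC-like cells as well.

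Among macrophages, 6 of the 7 lectins, all but Mgl2, were highest in the resident state in both libraries. Macrophage-like cells split into 8 sub-clusters, of which sub-cluster 2 (451 treated and 463 control cells) carried resident markers such as Lyve1, Folr2 and Timd4; the mast cell genes Mcpt4 and Cma1 were also among its 10 leading genes. Mrc1 there had 1771 treated and 1838 control CPM, against 839 treated and 1012 control CPM in the interferon sub-cluster 0, 457 treated and 406 control CPM in the inflammatory sub-cluster 1 and 58.6 treated and 58.9 control CPM in the foamy sub-cluster 5, which is marked by Spp1 and Gpnmb. Clec10a gave 949.5 treated and 1061 control CPM in resident, 380.1 treated and 482 control CPM in interferon, 58.7 treated and 60.9 control CPM in inflammatory and 22.7 treated and 13.7 control CPM in foamy cells. Among the sub-clusters with at least 50 cells per library, both receptors were lowest in the foamy cells, of which 22.2% in the treated and 30.4% in the control library held a UMI of Mrc1.

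Mgl2 kept more of its level outside the resident state than Clec10a did: it had 175 treated and 132 control CPM in inflammatory cells against 354 treated and 383 control CPM in resident cells. Its highest level was 421 treated and 421 control CPM, in sub-cluster 3, an unnamed group led by Hspa1b, Egr1 and Jun, heat-shock and immediate early genes. Cd209d, Cd209f and Cd209g were concentrated in resident cells at 190.0 treated and 302 control CPM, 286 treated and 289.6 control CPM and 127 treated and 96.7 control CPM. All 3 had 0 UMIs in foamy cells of both libraries, and in inflammatory cells the treated library had 0 UMIs of the 3 and the control library 1, of Cd209f. A count of 0 allowed at most 2.197 CPM in treated and 2.42 CPM in control foamy cells. In the interferon cells Cd209f had 10.99 treated and 12.03 control CPM. In the unnamed sub-clusters 4, which had the lowest median depth, and 6, led by T cell genes, the Cd209 members ranged from 20.5 to 170.2 CPM.

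Within the re-clustered cDC1-like and cDC2-like cells, Cd209a was high in several unnamed sub-clusters. It was at 522 treated and 453 control CPM in sub-cluster D2, led by Mmp12, Cd14 and Ccl17, at 417 treated and 325 control CPM in D4, led by Lyz2, Fn1 and Ly6c2, and at 127 treated and 162 control CPM in D3, led by Cyp7b1, Cd7 and Tcf4. Sub-cluster D5, led by T cell genes, had 370.2 treated and 332 control CPM from 23 treated and 8 control cells. By marker score the closest class was monocyte for D4, pDC for D3 and T cell for D5. For D2 it was cDC2, with 2 of its markers 2-fold up where at least 3 were asked for. None of these sub-clusters was therefore named as a conventional dendritic cell. Clec10a followed the same order of D2 and D4 over D3, with 314 treated and 251 control CPM, 263 treated and 251 control CPM and 96.9 treated and 114 control CPM, D2 and D4 overlapping. Mgl2 was at 266 treated and 253 control CPM in D2 but at 53.4 treated and 49.2 control CPM in D4. Migratory DC-like cells (D6, with Ccr7 and Fscn1) had 0 UMIs of Cd209a and Mgl2 in both libraries and 3 treated and 1 control UMIs of Clec10a. Of the cDC1-like sub-clusters, D1 had 0 UMIs of Cd209a in both libraries, while D0, led by cell cycle genes (42 treated and 27 control cells), had 81 treated UMIs, 64 of them in 1 cell, and 1 control UMI.

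**Figure D3:**
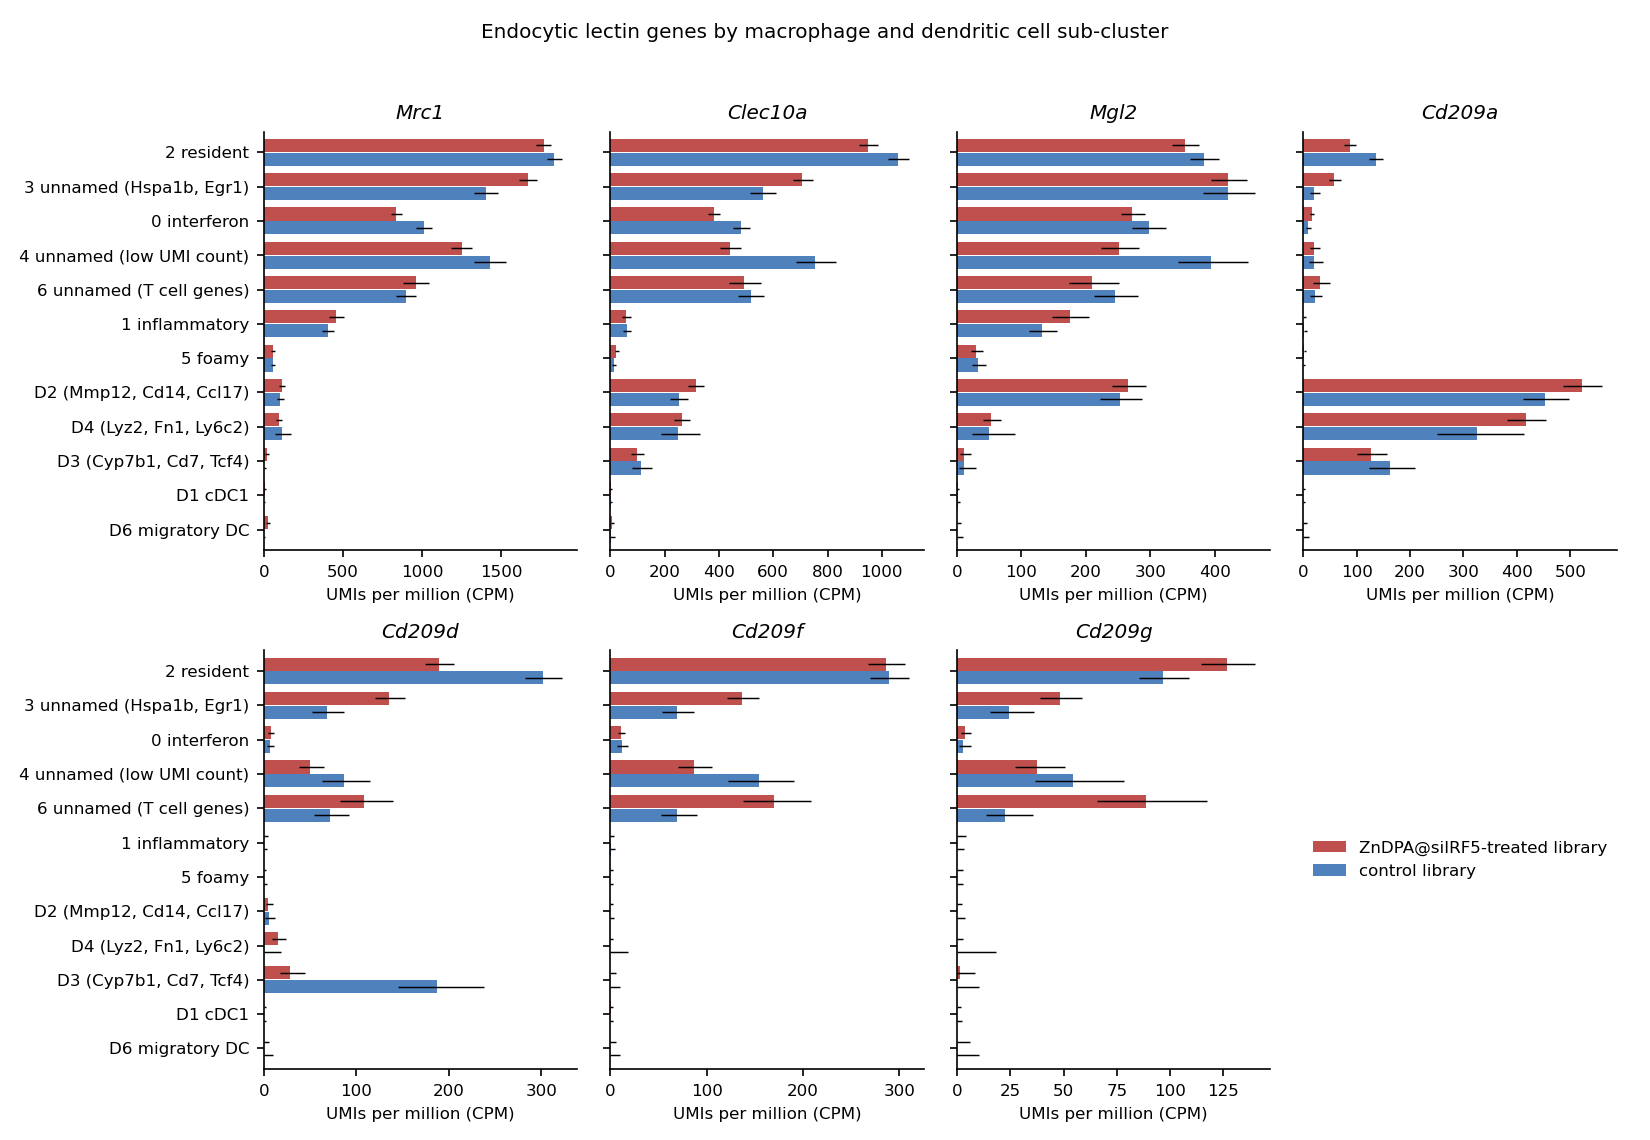
Level of each lectin gene in CPM (x axis, linear) by macrophage sub-cluster and dendritic sub-cluster, each named on the y axis, treated library in red above the control library in blue, with exact 95% Poisson intervals. The Cd209d, Cd209f and Cd209g bars are near 0 in inflammatory and foamy cells, and among the dendritic sub-clusters drawn, which leave out D0, D5 and D7, the Cd209a bars are highest in D2 and D4.

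Between the libraries, none of the 7 lectins differed by 1.5-fold in macrophage-like cells. In macrophage-like cells Mrc1 had 1120.1 CPM in treated cells and 1096 CPM in control cells (log2 ratio 0.03, interval -0.01 to 0.07), where a positive log2 ratio means more in the treated library. Clec10a was at 516 treated and 561 control CPM (log2 ratio -0.12, interval -0.17 to -0.07) and Mgl2 at 273 treated and 277 control CPM (log2 ratio -0.02, interval -0.09 to 0.05). Of the 7 members, 0 were past 1.5-fold in either direction, where 6.51% of 9914 measured genes were (at least 50 UMIs in a library). With 7 genes, this count says nothing particular to the members beside that share. Cd209d, at 80.7 treated and 109.5 control CPM, was furthest below 0 (log2 ratio -0.44, interval -0.57 to -0.31), and it was past 1.5-fold lower when doublet calls were kept (-0.63), when at least 1000 detected genes were asked for (-0.60) and when monocyte-like cells were added (-0.83). Next came Cd209a at 38.4 treated and 47.3 control CPM (log2 ratio -0.30, interval -0.49 to -0.11). Cd209g, at 47.7 treated and 36.97 control CPM, lay above 0 (log2 ratio 0.37, interval 0.18 to 0.56), and Cd209f, at 112 treated and 111 control CPM, had an interval of -0.10 to 0.13 on the log2 scale. The median over the members was -0.02, against 0.04 over all measured genes.

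Markers of other cells also differed between the libraries within macrophage-like cells. The 8 mast cell markers summed to 105 CPM in treated and 8.09 CPM in control cells, with 7 of 8 higher in the treated library, and to 356 treated and 8.08 control CPM in the resident sub-cluster. The 8 B cell markers summed to 74.8 CPM in treated and 217 CPM in control macrophage-like cells, all 8 lower in the treated library. Their part in the lectin values was not tested. Where markers of T cells, B cells, plasma cells and neutrophils together gave 1 UMI or none, the ratio of Cd209a was 0.41 and that of Cd209g -0.06, both of the opposite sign. Cd209d kept its sign there, at -0.22.

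**Figure D4:**
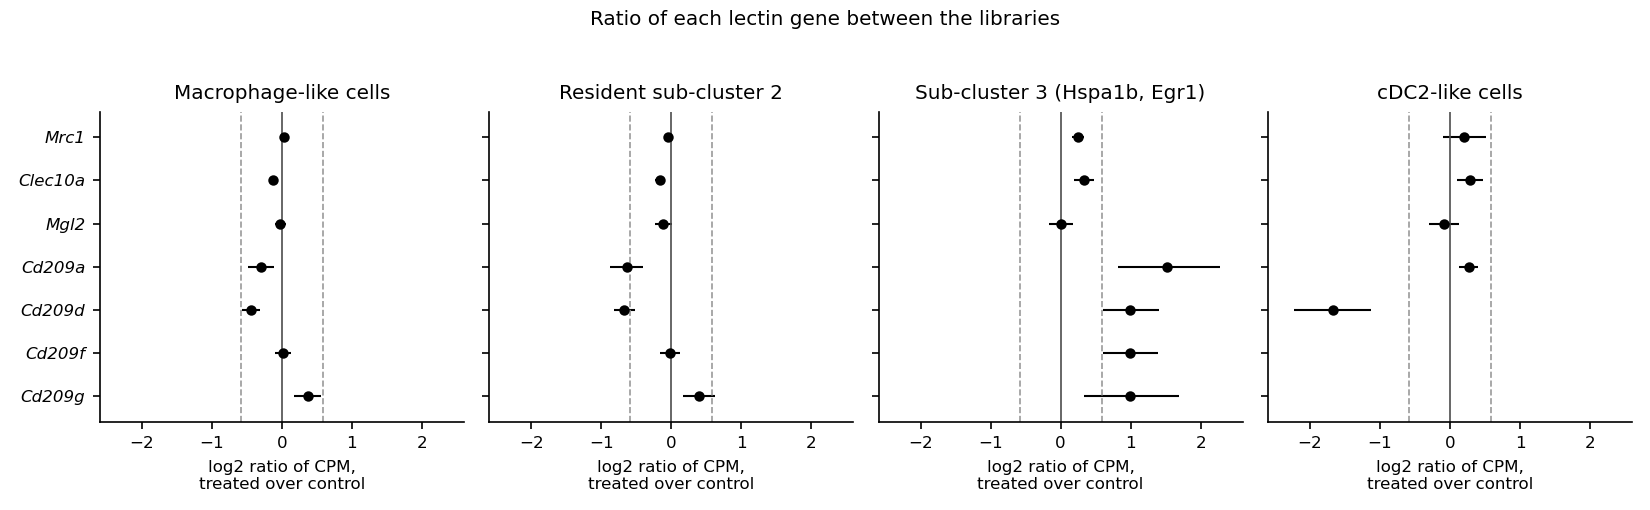
log2 ratio of CPM, treated over control (x axis), for each lectin gene with at least 50 UMIs in a library, in macrophage-like cells, resident sub-cluster 2, sub-cluster 3 and cDC2-like cells. Points are ratios, bars exact 95% intervals for counting error, and dashed lines 1.5-fold either way; in macrophage-like cells every point lies between the dashed lines.

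In resident sub-cluster 2, Cd209a had 87.00 CPM in treated cells and 135 CPM in control cells (log2 ratio -0.64, interval -0.87 to -0.41) and Cd209d 190.0 treated and 302 control CPM (log2 ratio -0.67, interval -0.82 to -0.52). These 2 members were past 1.5-fold lower, as were 2.01% of 6168 measured genes. Cd209f, at 286 treated and 289.6 control CPM, did not differ beyond counting error (log2 ratio -0.02, interval -0.16 to 0.12), and Cd209g was at 127 treated and 96.7 control CPM (log2 ratio 0.39, interval 0.16 to 0.62). In sub-cluster 3 these genes were higher in the treated library, with Cd209a at 58.1 treated and 20.3 control CPM (log2 ratio 1.52, interval 0.83 to 2.28), Cd209d at 135 treated and 67.9 control CPM (log2 ratio 0.99, interval 0.60 to 1.40) and Cd209f at 137 treated and 68.9 control CPM (log2 ratio 0.99, interval 0.60 to 1.39). There 4 members were past 1.5-fold higher, where 4.81% of 5182 genes were, Cd209g among them at 48.2 treated and 24.3 control CPM. The values moved with the border between these states, in alternatives added after seeing the data: with sub-clusters 2 and 3 joined, the ratio was -0.49 for Cd209a and -0.52 for Cd209d, and in the resident cluster of the first, coarser clustering (632 treated and 552 control cells) it was -0.19 and -0.33, neither past 1.5-fold. The single control cell with most Cd209a UMIs held 42 of 385. In sub-cluster 4, Clec10a, Mgl2, Cd209d and Cd209f were past 1.5-fold lower (4.35% of genes), with Clec10a at 440.1 treated and 755 control CPM, and the 10 resident markers there summed to 4441 CPM in treated and 6885 CPM in control cells, all 10 lower. In sub-cluster 6, led by T cell genes, Cd209d (109 treated and 71.7 control CPM) and Cd209f (170.2 treated and 69.3 control CPM) were past 1.5-fold higher, as 3.3% of genes were. Cd209g (88.7 treated and 22.7 control CPM) had 49 treated and 19 control UMIs there, below the minimum of 50 for a measured gene. Sub-cluster 6 had 50 treated and 79 control cells. Interferon cells had Mrc1 at 839 treated and 1012 control CPM (log2 ratio -0.27, interval -0.36 to -0.18) and Clec10a at 380.1 treated and 482 control CPM (log2 ratio -0.34, interval -0.47 to -0.21), and foamy cells had Mrc1 at 58.6 treated and 58.9 control CPM (log2 ratio -0.01, interval -0.48 to 0.47).

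In cDC2-like cells, Cd209a was at 419 treated and 348 control CPM (log2 ratio 0.27, interval 0.13 to 0.41), Clec10a at 252 treated and 207 control CPM (log2 ratio 0.28, interval 0.11 to 0.47) and Mgl2 at 145 treated and 154 control CPM (log2 ratio -0.09, interval -0.30 to 0.13), none past 1.5-fold. The mix of sub-clusters of the cDC1-like and cDC2-like cells was unequal between the libraries. Sub-cluster D4, unnamed and closest to monocytes by marker score, held 158 treated and 30 control cells. Cd209d was the 1 member past 1.5-fold lower, where 3.66% of 6749 genes were, with 49 treated and 71 control UMIs. Of the control UMIs 48 came from 1 cell, and without the top cell of each library the log2 ratio was -0.62, against -1.67 with it. In pDC-like cells, too few for a ratio, the Cd209d intervals of 106 to 180.4 CPM in the treated and 42.1 to 104 CPM in the control library lay next to each other without overlap.

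Monocyte-like cells held Mrc1 at 56.03 treated and 57.9 control CPM (log2 ratio -0.05, interval -0.25 to 0.15). Clec10a was lower in the treated library, at 28.2 treated and 52.1 control CPM (log2 ratio -0.89, interval -1.12 to -0.65), past 1.5-fold as 2.88% of 9071 genes were. Both monocyte clusters had that direction, with 32.6 treated and 61.3 control CPM in cluster 7, led by Vcan and Chil3, and 10.1 treated and 19.8 control CPM in cluster 17, led by Treml4 and Ace. However, among cells clustered at a minimum of 1000 detected genes the log2 ratio was 0.02, and the difference did not hold there. Neutrophil-like cells had Mrc1 at 23.1 treated and 5.11 control CPM (log2 ratio 2.18), higher in the treated library as 7.98% of 7493 genes were. Cluster 6, with the granule genes Mpo, Elane and Prtn3 among its leading genes, held 113 of 146 treated and 10 of 24 control UMIs, at 64.5 treated and 10.02 control CPM. It had 277 treated and 60 control cells. The 10 macrophage markers summed to 451 CPM in treated and 193 CPM in control neutrophil-like cells; their part was not tested. Over all kept cells every member was higher in the treated library, from 16.7 treated and 14.3 control CPM for Cd209d (log2 ratio 0.22) to 33.7 treated and 14.4 control CPM for Cd209a (log2 ratio 1.23). The classes that carry the lectins also held more cells there, macrophage-like cells 1882 of 11805 treated and 1434 of 11523 control cells, and cDC2-like cells 448 treated and 216 control. The part of these cell numbers in the ratios over all kept cells was not tested.

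Within the resident state, a cell with a UMI of one Cd209 member more often held a UMI of another than a cell without it. To set depth aside, each resident cell was thinned to 2000 UMIs, which left 427 treated and 442 control cells. Of cells with a Cd209g UMI, 70.1% of the treated (54 of 77) and 73.8% of the control library (45 of 61) also had Cd209f, against 18.6% of treated and 19.2% of control cells without Cd209g. Of cells with Cd209a, 65.3% in the treated and 75.4% in the control library had Cd209d, against 13.5% of treated and 14.4% of control cells without it. Cd209f was found in 68.7% of treated and 68.3% of control cells with Cd209d and in 18.02% of treated and 14.4% of control cells without it. In these 3 pairs the intervals with and without the first gene did not overlap in either library. The part of the sequence shared by Cd209f and Cd209g in their co-detection was not tested.

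The pairs of Clec10a with Mgl2 and of Mgl2 with Cd209f did not divide the resident cells in this way. Mgl2 was in 46.2% of treated and 53.5% of control resident cells with Clec10a, against 40.2% of treated and 45.97% of control cells without it. Cd209f was in 32.6% of treated and 25.6% of control cells with Mgl2, against 24.1% of treated and 27.9% of control cells without it, with overlapping intervals. Nearly every cell with Cd209d also held Mrc1, 81 of 83 treated and 101 of 101 control cells, as did 93.9% of treated and 93.3% of control cells without Cd209d. All 7 members were found together in 7 treated and 11 control resident cells. Cells without a UMI may still express a gene, since thinning leaves few molecules per cell. In cDC2-like cells, Cd209a was in 52.1% of treated and 44.2% of control cells with Clec10a, against 23.3% of treated and 18.2% of control cells without it. In pDC-like cells Cd209d was in 0 of 13 treated and 0 of 8 control cells with Clec10a, and in 13 of 48 treated and 4 of 30 control cells without it, so no thinned pDC-like cell held both. Over all thinned macrophage-like cells, 18.7% of 1694 treated and 19.1% of 1328 control cells held none of the 7 members.

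**Figure D5:**
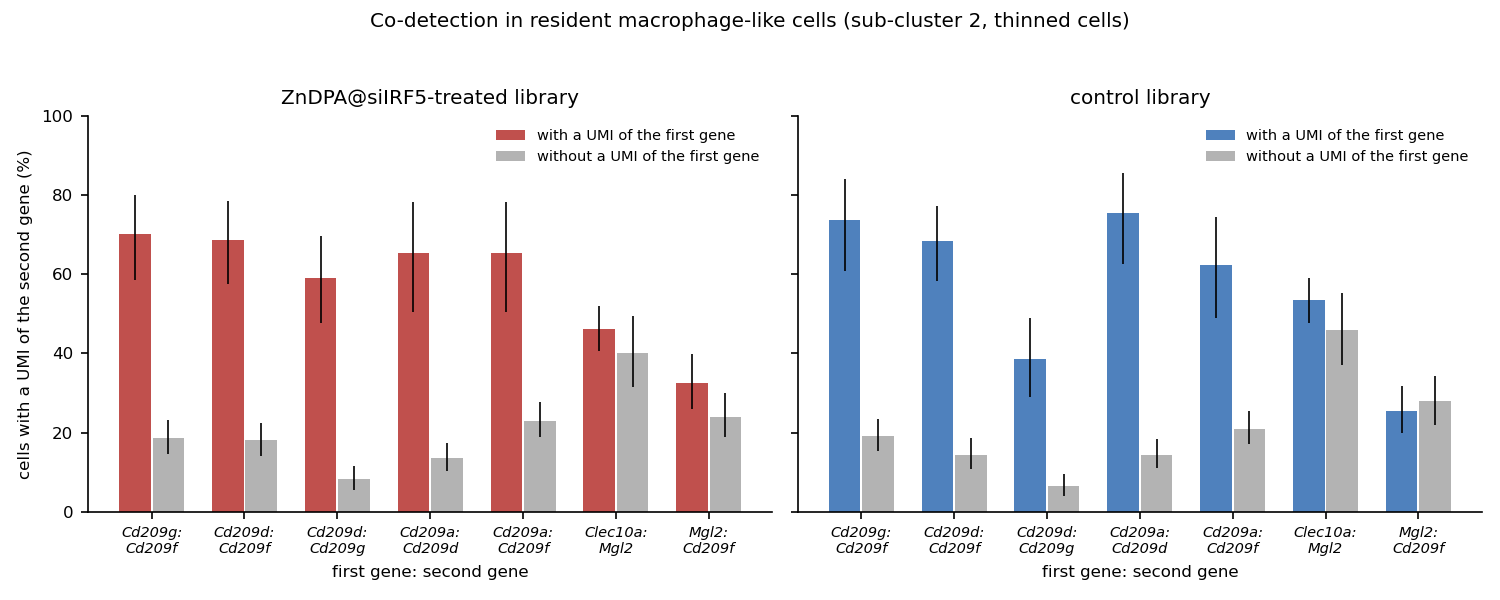
Share of resident macrophage-like cells (y axis, percent, cells thinned to 2000 UMIs) with a UMI of the second gene of each pair, among cells with (coloured) and without (grey) a UMI of the first gene, treated library left and control library right, with exact 95% binomial intervals. The coloured and grey bars lie apart for the 5 pairs of Cd209 genes and overlap in their intervals for Clec10a with Mgl2 and for Mgl2 with Cd209f.

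Resident cells with a Cd209d, Cd209f or Cd209g UMI (157 treated and 158 control) were set beside resident cells with none (270 treated and 284 control), a split made after the data were seen. Their median depth before thinning was 6826 UMIs with and 6559 UMIs without in the treated library, and 6252 UMIs with and 5655 UMIs without in the control library. Retnla, a secreted protein induced by interleukin-4, had 3759 CPM in cells with and 1646 CPM in cells without these UMIs in the treated library, and 5505 CPM with and 2333 CPM without in the control library. Of 13 measured genes of the alternative activation list given below, Retnla was the 1 past 1.5-fold higher in both libraries. Of that list 0 were past 1.5-fold lower in both. Cd209b, the cluster gene known from splenic marginal-zone macrophages, had 162 CPM in cells with and 17.3 CPM in cells without these UMIs in the treated library, and 249 CPM with and 17.7 CPM without in the control library. Fcna, which encodes the lectin ficolin A, had 812 CPM in cells with and 508 CPM in cells without these UMIs in the treated library, and 954 CPM with and 497 CPM without in the control library, and it was with Timd4, a phosphatidylserine receptor of resident macrophages, 1 of the 2 among 10 resident markers past 1.5-fold higher in both libraries. Of the other resident markers, Lyve1 (646 CPM with and 615 without in the treated, 832 and 782 in the control library) and Pf4 (2386 CPM with and 2384 without in the treated, 2580.2 and 2488 in the control library) hardly differed. Cd163 was higher with these UMIs, at a log2 ratio of 0.50 in the treated and 0.35 in the control library, and Cbr2 was at 0.10 and -0.004. The median over the 10 resident markers was 0.17 in both libraries. Over all measured genes it was -0.02 in the treated and -0.03 in the control library. Over all genes measured in both libraries, 0.637% of 4239 were past 1.5-fold higher in both and 1.30% lower in both. Other genes high in both were the chemokine gene Cxcl13 and the protease gene Mmp9, with 198 and 150.2 CPM with and 99.4 and 72.7 CPM without in the treated library. Lower in both were Itgav, the integrin alpha V subunit, with 159 CPM in cells with and 429 CPM in cells without these UMIs in the treated library, and 224 CPM with and 515 CPM without in the control library, and Ccr2, the receptor that guides monocytes out of the marrow, with 18.7 CPM in cells with and 65.4 CPM in cells without these UMIs in the treated library, and 29.98 CPM with and 54.4 CPM without in the control library. The class II genes H2-Aa and Cd74 lay within 1.5-fold in both.

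Across the 46 points given by 23 classes or sub-clusters in 2 libraries, Cd209f and Cd209g had a Pearson r of 0.968 between log2(CPM + 1) values, and Mrc1 and Mgl2 0.947. The lowest was that of Cd209a with Cd209f, 0.426. These points share libraries, differ in depth and include lymphocytes with levels near 0, so r is given as a description. The part of the sequence shared by Cd209f and Cd209g in their r was not tested. Groups with few cells in a library gave no point, among them pDC-like cells (39 control) and dendritic sub-cluster D4 (30 control). Cd209d had 139.5 treated and 67.9 control CPM in pDC-like cells, and Cd209a 417 treated and 325 control CPM in D4. Clec10a was also present in both groups. The r values of Cd209a, Cd209d and Clec10a therefore do not cover those cells. With the members themselves left out, 7294 genes were compared, and those most like Mrc1 were Nxpe5 (r 0.957), the complement genes C1qa (0.943) and C1qb (0.936) and the transporter Abca9 (0.938). Most like Clec10a among these genes were Rgl1 (0.8800), Clec4a1 (0.875), Ccl9 (0.874) and Ctsc (0.872), and most like Mgl2 Pltp (0.932), Nxpe5 (0.932), Ccl9 (0.9205) and Dab2 (0.9104). For Cd209a, Cfp, the complement factor properdin, led with 0.738, below the 0.799 of Clec10a and the 0.760 of Cd209d among the members, and was followed by Hrh1 (0.723), Kazn (0.694) and Ednrb (0.686). Hrh1, the histamine H1 receptor, led for Cd209d (0.843) among genes that are no members, before Cd209b (0.837), Slc8a2 (0.805) and Gfra2 (0.801). Cd209b led in the same way for both Cd209f (0.953) and Cd209g (0.965), with Fcna next (0.937 and 0.935), then C6 and Ccl8 for Cd209f and Vsig4 and C6 for Cd209g.

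Lists of related genes showed few members past 1.5-fold in macrophage-like cells. Of 5 measured genes of the mannose receptor family and related endocytic lectins, 0 were past 1.5-fold, where 6.51% of all measured genes were, the largest ratio being that of Thbd, thrombomodulin, with 54.8 CPM in the treated and 64.8 CPM in the control library, log2 ratio -0.24, followed by Cd93 (119 CPM in the treated and 105 CPM in the control library, log2 ratio 0.18) and Ly75, which encodes DEC-205 (4.69 CPM in the treated and 4.201 CPM in the control library, log2 ratio 0.16). Among 3 measured galactose-binding and Langerin-type lectins, Cd207, which encodes Langerin, was past 1.5-fold lower on few UMIs, as 3.21% of all measured genes were (2.18 CPM in the treated and 6.09 CPM in the control library, log2 ratio -1.48), Lgals3, galectin 3, lay within it (1495 CPM in the treated and 1195 CPM in the control library, log2 ratio 0.32), and so did Asgr2 of the asialoglycoprotein receptor (5.66 CPM in the treated and 6.301 CPM in the control library, log2 ratio -0.15). Of the other Cd209 cluster genes, Cd209b (30.5 CPM in the treated and 45.6 CPM in the control library, log2 ratio -0.58) lay just within 1.5-fold, and Cd209e had 5.097 CPM in the treated and 5.36 CPM in the control library, log2 ratio -0.07. With so few genes in each list, these counts say nothing particular to the lists beside that share. The lists had medians of 0.01, -0.15 and -0.33, against 0.04 over all measured genes.

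Alternative activation genes were split: of 15 measured, 2 were past 1.5-fold higher and 2 lower, where 3.3% of all measured genes were higher and 3.21% lower, with a median of -0.07. Ccl24, an eosinophil chemokine, was higher (185 CPM in the treated and 112 CPM in the control library, log2 ratio 0.72), as was Arg1, arginase 1 (15.9 CPM in the treated and 9.77 CPM in the control library, log2 ratio 0.70). Arg1 was among the 10 leading genes of macrophage sub-cluster 7, which had only 18 treated and 14 control cells. The part of these cells in its ratio was not tested. Cd163, the haemoglobin scavenger receptor, was lower (139.7 CPM in the treated and 226 CPM in the control library, log2 ratio -0.70), as was Irf4, a transcription factor of interleukin-4-driven macrophages, named after its value was seen (28.6 CPM in the treated and 45.4 CPM in the control library, log2 ratio -0.66). The machinery of clathrin-mediated uptake and early endosomes showed no member past 1.5-fold among 20 measured, where 6.51% of all measured genes were. Of the 20, 13 lay above 0, and their median of 0.04 matched the 0.04 over all measured genes. Beside those values, the counts say nothing particular to this machinery. Its largest ratios were those of the AP-2 adaptor subunits Ap2s1 (174 CPM in the treated and 143 CPM in the control library, log2 ratio 0.28), Ap2m1 (157 CPM in the treated and 129 CPM in the control library, log2 ratio 0.28) and Ap2a2 (152 CPM in the treated and 126 CPM in the control library, log2 ratio 0.27).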

How the data were processed

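The deposited files are counts: UMI counts per gene and barcode from 10x Genomics 3′ libraries (kit v2, per the labels' protocols), in matrices whose headers name Cell Ranger 7.2.0, while the submitters' processing notes name Cell Ranger 3.1.0, Seurat 4.4.0 and mm10. The sources used here do not say if intronic reads were included. The treated library held 77856529 UMIs in 13155 barcodes and the control library 88567528 in 12516.

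Barcodes with at least 500 genes and at most 15% mitochondrial UMIs were kept. Scrublet calls were removed (5.20% of treated and 4.26% of control barcodes; 10.5% and 10.0% were expected from loading, so doublets may remain). With scanpy 1.11.5, 2000 variable genes without the members, 30 components and 15 neighbours gave 29 Leiden clusters (resolution 1); macrophage-like and dendritic clusters were re-clustered at 0.5. A cluster was named where at least 3 listed markers of a class were 2-fold above the other clusters and no other class led its top 10 genes; this scoring was set after seeing the data. The members, marker lists and gene lists were chosen with earlier results of these data known.

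Counts were summed per library and class and given per 1000000 UMIs of the class (CPM), since 3′ UMIs count molecules regardless of length; Poisson, Clopper-Pearson and conditional binomial intervals (scipy 1.17.1) are at 95% and cover counting error only. A count of 0 was read as at most 3 counts. The interval code was tested on simulated data. Genes with at least 50 UMIs in a library were measured, and called past 1.5-fold. Ratios were given for classes of at least 100 and sub-clusters of at least 50 cells per library. The named genes were the members, the 3 measured genes of each list with the largest ratio, the 4 genes most correlated with each member (at least 50 CPM at one point), and Irf5; the genes named in the split of resident cells were chosen after their values were seen. Promoters and locations came from RefSeq (GRCm38.p6) and GENCODE vM21. Alternatives changed the scaling, filters, doublet calls, clustering and class borders.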

Additional observations from a re-analysis of the deposited data

How the results depend on the processing

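No paired analysis was possible because each group had 1 library. The ratios below are log2 ratios in macrophage-like cells, treated over control, that left the counting interval of the reported value. With doublet calls kept they were -0.0999 for Mrc1, -0.28 for Clec10a, -0.20 for Mgl2, -0.50 for Cd209a, -0.63 for Cd209d, -0.19 for Cd209f and 0.15 for Cd209g. With at least 1000 detected genes they were -0.10 for Mrc1, -0.29 for Clec10a, -0.17 for Mgl2, -0.60 for Cd209d and -0.16 for Cd209f, and that of Clec10a in monocyte-like cells was 0.0194, against -0.89 as reported. With monocyte-like cells added they were -0.34 for Mrc1, -0.51 for Clec10a, -0.41 for Mgl2, -0.83 for Cd209d, -0.38 for Cd209f and -0.0200 for Cd209g. In cells with at most 1 UMI of other lineages' markers they were -0.0417 for Mrc1, -0.16 for Mgl2, 0.41 for Cd209a, -0.22 for Cd209d, -0.25 for Cd209f and -0.0633 for Cd209g. With the same sub-cluster weights in both libraries they were -0.0342 for Mrc1, -0.18 for Clec10a and -0.15 for Mgl2. At clustering resolution 0.5 they were -0.0288 for Mrc1 and -0.19 for Clec10a, at resolution 2 -0.0109 for Mrc1, with the median of all genes set to 0 -0.0113 for Mrc1, and with the mean over cells of each cell's UMI fraction -0.0755 for Cd209a. With at least 10 UMIs as the minimum, 15.03% of genes were past 1.5-fold, as was 1 of the other Cd209 cluster genes. The causes were not tested.

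Over these settings and the alternatives added after seeing the data, Clec10a, Mgl2 and Cd209d kept the sign of their ratio in 13 of 13 alternatives in macrophage-like cells, Cd209a in 12, Cd209g in 11, and Mrc1 and Cd209f, both near 0, in 3. Cd209d ranged from -0.83 to -0.22. With 1 library per group, library and treatment cannot be told apart, and counting intervals understate the error. Named classes are rebuilt from clusters, doublets may remain, and few UMIs limit Cd209 values outside macrophage-like and dendritic cells. No class was named cDC2-like at clustering resolution 0.5 or with at least 1000 detected genes.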
